A study of Mus musculus with 10 samples.

Results

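The RNA levels of 9 members of the BCL2 family were followed in mouse splenic B cells through resting, stimulated and post-mitotic states. The members were taken by gene symbol from a transcript table in which each value is in TPM, a transcript's share of its library after correction for length, with a total of 1000000 per library. They were the anti-apoptotic Bcl2, Bcl2l1 and Bcl2a1a, the BH3-only Bcl2l11, Bmf, Bbc3 and Bid, and the effectors Bax and Bak1. These 9 genes held 22 of the 13065 transcript rows with a symbol, and 9 of the 6610 genes. Transcript rows were summed to genes, and all 9 members passed the filter of 1 TPM in 2 libraries.

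The B cells came from spleens of C57BL/6 mice, with no transgene or deletion named in the labels, and 10 libraries fell into 5 groups of 2. The naive group was resting B cells without culture. For Phase I, B cells were briefly exposed to anti-IgM and anti-CD40, and 48 h later the undivided cells (div0) were sorted apart from those that had divided (div12). For Phase II, div12 cells stayed in culture with anti-CD40 at 0.12 µg/ml for another 48 h and were then sorted into cells that divided again (div12_48_d) and cells that did not (div12_48_u). The Phase I replicates were separate pools of 4 to 5 mice, while the labels used here do not say how Phase II cells were pooled. RNA was extracted from 1000000 cells in Phase I and from 500000 in Phase II, so phase, time in culture and cell input cannot be told apart. The series title names survivin in post-mitotic G1 cells, which places the div12_48_d against div12_48_u comparison at its centre.

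The BCL2 family governs the mitochondrial route to apoptosis. Anti-apoptotic members hold BH3-only proteins and effectors in check, BH3-only proteins carry stress and signal-withdrawal inputs, and the effectors Bax and Bak1 permeabilise the outer mitochondrial membrane. In B cells, BIM (the product of Bcl2l11) is known for its part in removing cells that lose survival signals or bind self antigen, and A1 and BCL-XL (the products of the Bcl2a1 genes and Bcl2l1) are known as targets of antigen receptor and CD40 signalling.

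B cell identity and purity were checked on marker lists. Of 12 B cell markers 8 were listed, with a summed level of 16773 to 26484 TPM over all libraries. The naive libraries carried more RNA of other blood cells. The 14 listed of 17 myeloid markers summed to 858 and 2618 TPM in the naive libraries, against 96.5 to 310.5 TPM in the cultured ones, and C1qa was at 0 in all cultured libraries. The 6 listed of 11 erythroid markers summed to 2767 and 3355 TPM in naive cells, against 17.3 to 65.7 TPM. The 6 listed of 11 NK markers summed to 114 and 162 TPM, against 4.01 to 7.46 TPM. The 8 listed of 12 T cell markers summed to 65.3 and 72.6 TPM in naive cells. They summed to 77.5 and 84.5 TPM in div12_48_d, where Cd5, which B cells also express, gave 70.4 and 74.7 TPM, and to 37.6 and 36.7 TPM in div12_48_u. The naive replicates also differed most, with 397 of 4626 genes over 2-fold apart, against 35 to 68 in the other groups. The 3 listed of 7 platelet markers summed to 14.4 and 15.7 TPM in naive cells, against 1.17 to 2.74 TPM. Plasma cell markers, 6 of 7 listed, summed to 2041 and 874 TPM in naive cells, 389 to 465 TPM in div0 and div12, and 972 and 1193 TPM in div12_48_d, against 458 and 480 TPM in div12_48_u. In div12_48_d against div12_48_u 3 of the 6 were higher (12.2% of all genes) and 0 lower (13.4%), namely Jchain, Xbp1 and Tnfrsf17. Tnfrsf17 was at 0 in both div12_48_u libraries, and its low levels in div12_48_d are given below. In div12_48_d against div12 3 were higher (11.9% of all genes) and 0 lower (4.09%), namely Jchain, Xbp1 and Prdm1. The part of plasma cell markers in the Phase II differences was not tested. In naive replicate 1 most of the plasma cell sum came from Irf4 alone, so that sum need not mean plasma cells. The part of other blood cells in differences from naive was not tested. A rescaling that left out the myeloid, NK, T cell, erythroid and platelet marker genes changed no member's call. It alters only the library total and cannot remove RNA of a member that came from other cells, so it does not answer this. In bulk RNA, fewer cells of a type and less RNA per cell cannot be told apart.

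Differences below are log2 fold changes of TPM + 1 with standard error from one limma model over all 10 libraries. A gene was called at an adjusted p under 0.05 (Benjamini-Hochberg over 4427 genes). The p-values measure only the spread between these libraries. TPM are shares, and the median of all genes lay at -0.24, -0.35, -0.11 and -0.21 in div0, div12, div12_48_u and div12_48_d against naive, and at 0.16 in div12_48_u against div12. With median-ratio scaling these medians came to between -0.01 and 0.05, so changes of that size depend on the scaling.

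Among the 3 anti-apoptotic members followed here, Bcl2a1a was the most abundant in every library. Mcl1, placed below with other relatives, stood above it in both naive libraries. Bcl2a1a rose about 4-fold on stimulation, and Bcl2l1 rose with it. Bcl2 took the opposite course in divided cells, so that the 3 anti-apoptotic genes did not move as one block.

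Bcl2a1a (NM_009742; chromosome 9, 88956920 to 88962416 in GRCm38.p6) encodes an A1 protein. It has close relatives in mouse, and 69% of its 50-base stretches, the length of the reads, occur in another gene of GENCODE M21: 67.7% in Bcl2a1d and 41% in Bcl2a1b. Over 516 coding bases, Bcl2a1d differed from it at 7 positions and Bcl2a1b at 11. The first 90 coding bases from the GENCODE M21 transcripts are shown because they hold 5 of the differences for each relative. Capitals mark, in the relatives, the bases that differ from Bcl2a1a, and, in Bcl2a1a, each position at which either relative differs.
Bcl2a1a: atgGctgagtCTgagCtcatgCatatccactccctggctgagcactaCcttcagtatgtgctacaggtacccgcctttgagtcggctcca
Bcl2a1b: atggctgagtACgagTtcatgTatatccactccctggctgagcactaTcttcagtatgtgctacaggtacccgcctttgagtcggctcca
Bcl2a1d: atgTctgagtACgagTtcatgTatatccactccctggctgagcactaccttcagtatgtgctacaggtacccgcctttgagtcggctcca
The other A1 genes were not analysed here, and the Bcl2a1a level is uncertain as to which of these genes the reads came from.

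Bcl2a1a stood at 356.5 and 219 TPM in naive cells, 1169 and 1166 in div0, 1460 and 1568 in div12, 992 and 849 in div12_48_d, and 953 and 932 in div12_48_u. Every cultured library exceeded both naive ones, and the div12 libraries were highest. In limma, Bcl2a1a rose by 2.06 ± 0.19 in div0 against naive (adjusted p = 9.06e-05) and by 2.43 ± 0.19 in div12 against naive (adjusted p = 1.95e-05). It remained above naive in div12_48_d (1.71 ± 0.19, adjusted p = 0.000131) and in div12_48_u (1.75 ± 0.19, adjusted p = 0.00025).

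Against div12, Bcl2a1a fell by 0.72 in div12_48_d (limma adjusted p = 0.0385) and by 0.68 in div12_48_u (adjusted p = 0.0215). The fall in div12_48_u lost its call without div12 replicate 1 or 2 (adjusted p = 0.0586 and 0.104) or div12_48_u replicate 1 or 2 (0.0834 and 0.0867). The fall in div12_48_d lost its call without any 1 of the 8 cultured libraries (adjusted p from 0.0625 to 0.233), with no filter (0.0706) and with no trend (0.0624). Between div12_48_d and div12_48_u the difference was -0.04, with a 95% interval of -0.48 to 0.40, and it changed sign to 0.04 with median-ratio scaling. In div12 against div0 it was 0.37 ± 0.19, called only when a naive replicate or the naive group was left out of the fit (adjusted p from 0.0384 to 0.0387).

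Bcl2l1 (chromosome 2, 152758732 to 152833803), the gene of BCL-XL, was at 11.0 and 14.9 TPM in naive cells, 43.4 and 44.3 in div0, 70.8 and 55.9 in div12, 61.0 and 52.7 in div12_48_d, and 42.3 and 30.0 in div12_48_u. Every cultured library lay above both naive ones, and the divided groups lay above div12_48_u without overlap. Bcl2l1 rose in div0 against naive by 1.70 ± 0.20 (limma adjusted p = 0.000304) and in div12 against naive by 2.21 ± 0.20 (adjusted p = 4.39e-05). It was above naive by 2.06 in div12_48_d (adjusted p = 6.87e-05) and by 1.41 in div12_48_u (adjusted p = 0.000922).

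In Phase II, Bcl2l1 was higher in div12_48_d than in div12_48_u by 0.66 ± 0.20 (limma adjusted p = 0.0469, 95% interval 0.19 to 1.12). This call was lost without any 1 of 7 libraries: either div0 replicate (adjusted p = 0.0792), either div12 replicate (0.0525 and 0.0523), div12_48_u replicate 2 (0.233), or either div12_48_d replicate (0.24 and 0.0828). It was also lost with no filter (0.0799), with no trend (0.0613) and with the compared groups alone (0.095). Against div12, Bcl2l1 fell by 0.80 in div12_48_u (adjusted p = 0.0141), a call lost without div12 replicate 1 (0.085), without div12_48_u replicate 2 (0.0887) and with the compared groups alone (0.0563). Between div12_48_d and div12 the difference was -0.15 and was not called (adjusted p = 0.697). The difference of div12 against div0 was 0.51 ± 0.20 (adjusted p = 0.14), and it was called with median-ratio scaling (0.0477), quantile normalization (0.0496) and the most abundant transcript (1.22, adjusted p = 0.0222).

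The 6 Bcl2l1 transcript rows did not keep constant shares. NM_009743, a 3-exon transcript with 699 coding bases, made up 34.2% and 22.9% of Bcl2l1 TPM in naive cells, 39.8% and 46.6% in div0 and 68.2% and 75.6% in div12. In Phase II its share was 65.1% and 60.9% in div12_48_d, against 40.9% and 41.1% in div12_48_u. The noncoding row NR_149254 had 22.8% and 22.2% in div0, and 10.3% and 17.2% in div12_48_d, against 20.8% and 26.6% in div12_48_u. Only 5.49% of the 50-base stretches of NM_009743 are absent from the other mapped rows of the gene, so the split rests on few bases, and no test was run on rows.

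**Figure D1:**
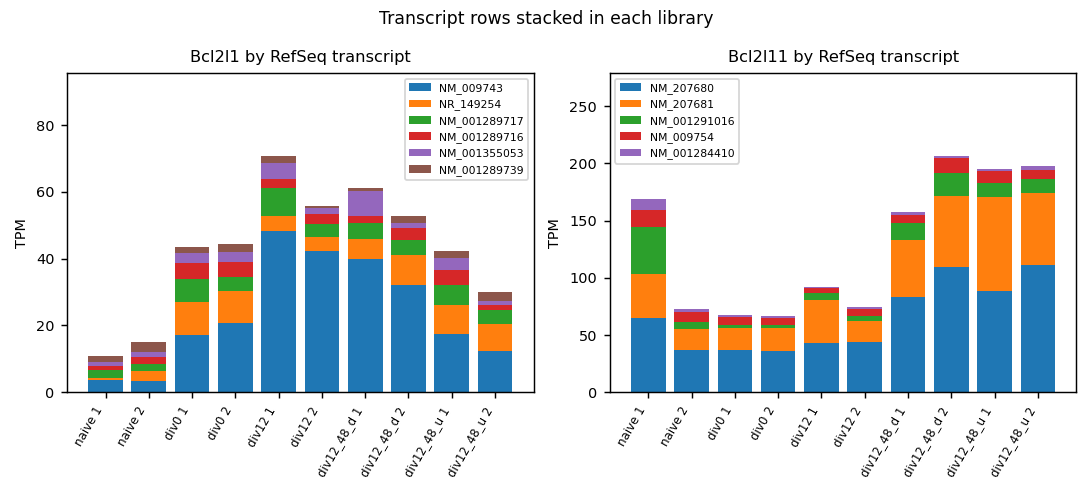
TPM of each RefSeq transcript row of Bcl2l1 (left) and Bcl2l11 (right), stacked in each of the 10 libraries. The NM_009743 row holds the larger part of Bcl2l1 in the div12 and div12_48_d libraries, and the NM_001291016 row of Bcl2l11 is 40.9 TPM in naive replicate 1 and 6.18 TPM in naive replicate 2.

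Bcl2 (chromosome 1, 106538176 to 106714290), the founding anti-apoptotic member, was at 120.1 and 142 TPM in naive cells, 103 and 96.7 in div0, 76.0 and 65.3 in div12, 69.2 and 82.5 in div12_48_d, and 120.0 and 108 in div12_48_u. The lowest libraries were those of the divided groups, div12 and div12_48_d, which overlapped each other. Bcl2 fell by 0.88 ± 0.13 in div12 against naive (limma adjusted p = 0.00048) and by 0.78 ± 0.13 in div12_48_d against naive (adjusted p = 0.00111). In div12_48_u against naive the difference was -0.20, with a 95% interval of -0.50 to 0.10 (adjusted p = 0.254).

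In div0 against naive, Bcl2 fell by 0.39 (limma adjusted p = 0.0345), or by 0.15 relative to the median gene. This call was lost with median-ratio scaling (adjusted p = 0.304), quantile normalization (0.167), the most abundant transcript alone (0.128) and the compared groups alone (0.0536). It was also lost without naive replicate 2 (0.165), div0 replicate 1 (0.0875) or div0 replicate 2 (0.155).

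Bcl2 rose in div12_48_u against div12 by 0.68 ± 0.13 (limma adjusted p = 0.00418), and this call held in every alternative run at the same threshold and without each library. Set against div12, div12_48_d differed by 0.10 (adjusted p = 0.675), and it turned to -0.03 with both scalings. In the direct comparison Bcl2 was lower in div12_48_d than in div12_48_u by 0.58 ± 0.13 on the log2 scale (log2 fold change -0.58, adjusted p = 0.0147). That call was lost without div12_48_d replicate 1 (0.115), without div12_48_u replicate 1 (0.0919) and with the compared groups alone (0.0524). In div12 against div0 the difference was -0.49 (adjusted p = 0.0519), and it was called without naive replicate 1 (0.0433), without naive replicate 2 (0.0435) and without the whole naive group (0.0435), as well as with the filter at 5 TPM (0.0433), median-ratio scaling (0.0403) and quantile normalization (0.0424).

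The opposite courses of Bcl2 and Bcl2l1 showed in their TPM ratio, for which no test was run. Bcl2 over Bcl2l1 was 10.9 and 9.54 in naive cells, 2.37 and 2.18 in div0 and 1.07 and 1.17 in div12. It was 1.13 and 1.56 in div12_48_d, against 2.84 and 3.60 in div12_48_u. The 2 Phase II groups did not overlap. Bcl2a1a made up 73.1% and 58.2% of the summed TPM of the 3 anti-apoptotic genes in naive cells, and between 85.5% and 92.8% in all cultured libraries. That sum was 488 and 376 TPM in naive cells, 1315 and 1307 in div0, 1606 and 1689 in div12, 1122 and 984 in div12_48_d and 1115 and 1070.0 in div12_48_u.

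**Figure D2:**
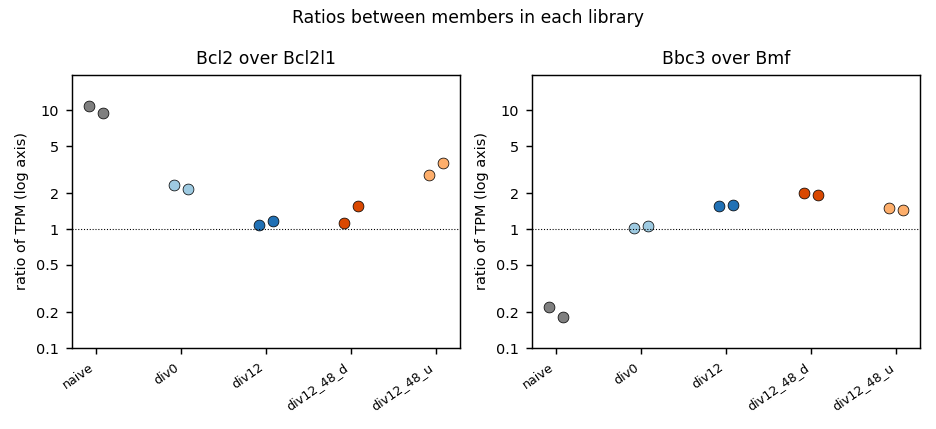
Ratio of TPM (log axis) of Bcl2 over Bcl2l1 (left) and of Bbc3 over Bmf (right) in each of the 2 libraries of each group. Bcl2 over Bcl2l1 is 1.07 to 1.56 in div12 and div12_48_d and 2.84 to 3.60 in div12_48_u, and Bbc3 over Bmf is below 1 in the naive libraries alone.

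The BH3-only members split into 3 courses. Bid rose on stimulation, Bmf fell, and Bbc3 and Bcl2l11 were highest by group mean in Phase II. Against div12, Bmf, Bbc3 and Bcl2l11 all rose in div12_48_u while Bid fell.

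Bmf (chromosome 2, 118528757 to 118549686) encodes a BH3-only protein linked to the cytoskeleton. It was at 106 and 82.2 TPM in naive cells, 35.7 and 32.2 in div0, 15.0 and 15.8 in div12, 25.9 and 31.8 in div12_48_d, and 52.1 and 51.0 in div12_48_u. No group overlapped another, and the nearest neighbours were div0 and div12_48_d. Bmf fell by 1.43 ± 0.15 in div0 against naive (limma adjusted p = 0.000162) and by 2.52 ± 0.15 in div12 against naive (adjusted p = 5.91e-06). It was still lower than naive in div12_48_d (-1.66, adjusted p = 4.37e-05) and in div12_48_u (-0.84, adjusted p = 0.0025).

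Bmf was the only member called in div12 against div0, at -1.09 ± 0.15 (limma adjusted p = 0.0126). That call was lost without div0 replicate 1, div0 replicate 2 or div12 replicate 2, where the difference was -1.02, -1.16 and -1.13. Each of these fits leaves 1 library in a group, and far fewer of all genes were called in it. In div12_48_u against div12, Bmf rose by 1.68 ± 0.15, or 3.20-fold (adjusted p = 0.000198), and this held in every alternative and without each library. The rise in div12_48_d against div12 was 0.86 (adjusted p = 0.00722), a call lost without div12_48_d replicate 2 (0.0651). Bmf was lower in div12_48_d than in div12_48_u, at -0.82 ± 0.15 (adjusted p = 0.00675), a call lost without div12_48_d replicate 1 (0.0607). Its main row, NM_138313, followed the sum, with 12.1 and 15.1 TPM in div12_48_d, against 28.0 and 29.7 TPM in div12_48_u.

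Bbc3 (NM_133234; chromosome 7, 16308398 to 16318334) encodes PUMA, a BH3-only protein known as a p53 target that FOXO factors can also induce. It was at 23.3 and 14.9 TPM in naive cells, 36.5 and 34.0 in div0, 23.5 and 25.4 in div12, 52.8 and 61.7 in div12_48_d, and 78.6 and 74.6 in div12_48_u. The 4 Phase II libraries lay above all 6 others. Bbc3 rose in div12_48_u against div12 by 1.61 ± 0.19 (limma adjusted p = 0.000498) and in div12_48_d against div12 by 1.19 ± 0.19 (adjusted p = 0.00482). Both calls held in the alternatives run at the same threshold and without each library.

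Against naive, Bbc3 rose by 1.98 in div12_48_u (limma adjusted p = 0.000127), by 1.56 in div12_48_d (adjusted p = 0.000192) and by 0.88 in div0 (adjusted p = 0.00487). The call in div0 was lost with the compared groups alone (0.0502). In div12 against naive the difference was 0.37 (adjusted p = 0.112), and it reached 0.68 and a call without naive replicate 1 (0.00383), and was also called with median-ratio scaling (0.012) and quantile normalization (0.0166). In div12 against div0 the difference was -0.51 (adjusted p = 0.118) and in div12_48_d against div12_48_u it was -0.42 (adjusted p = 0.141). Leaving out naive replicate 1 or 2 gave both differences a call, with 0.0332 and 0.0331 in div12 against div0 and 0.0268 and 0.0263 in div12_48_d against div12_48_u. Bbc3 over Bmf was 0.221 and 0.181 in naive cells, 1.02 and 1.05 in div0 and 1.57 and 1.61 in div12. It was 2.04 and 1.94 in div12_48_d, against 1.51 and 1.46 in div12_48_u.

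Bcl2l11 (chromosome 2, 128126038 to 128162547), the BIM gene, was at 169 and 72.4 TPM in naive cells, 67.3 and 66.3 in div0, 92.2 and 74.3 in div12, 157 and 206.5 in div12_48_d, and 195.0 and 198 in div12_48_u. The naive replicates disagreed, and their range overlapped that of div12 and div12_48_d. Bcl2l11 rose in div12_48_u against div12 by 1.24 ± 0.33, or 2.36-fold (limma adjusted p = 0.0169). This call was lost without div12 replicate 2 (0.0983), div12_48_u replicate 1 (0.0741) or div12_48_u replicate 2 (0.0706). In div12_48_d against div12 the difference was 1.11 ± 0.33 (adjusted p = 0.0529). That difference was called with the filter at 5 TPM (0.0464), the most abundant transcript (0.0255), the compared groups alone (0.0453) and without either naive replicate (0.00398 and 0.00391).

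Differences of Bcl2l11 from naive were not called: -0.72 in div0, -0.41 in div12, 0.70 in div12_48_d and 0.82 in div12_48_u, with limma adjusted p of 0.0936, 0.288, 0.0929 and 0.0732. The most abundant transcript gave calls in div12_48_d (0.0122) and div12_48_u (0.0149), as did median-ratio scaling (0.0386 and 0.0422). The values turned on the choice of naive library. Without naive replicate 1, the value in div12_48_u was 1.43 (adjusted p = 0.00126), that in div12_48_d 1.30 (adjusted p = 0.00119), and that in div12 changed sign to 0.19 (adjusted p = 0.387). Without naive replicate 2, the value in div0 was -1.32 (adjusted p = 0.00147) and that in div12 was -1.02 (adjusted p = 0.00275). The sum of the myeloid markers was 858 TPM in naive replicate 1 and 2618 TPM in naive replicate 2, and that of the plasma cell markers was 2041 TPM in replicate 1, of which Irf4 gave 1682, and 874 TPM in replicate 2. Whether the difference in these markers bears on the Bcl2l11 values was not tested. In div12_48_d against div12_48_u the difference was -0.12, with a 95% interval of -0.87 to 0.63, and it was 0.07 without div12_48_d replicate 1.

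By row, NM_207680, with 588 coding bases, held 38.7% to 58.5% of Bcl2l11 TPM over the libraries. It was at 83.2 and 110 TPM in div12_48_d and 88.8 and 112 in div12_48_u, against 43.2 and 43.5 in div12. The row NM_001291016 differed between the naive libraries, with 40.9 TPM in replicate 1 and 6.18 in replicate 2. None of the 50-base stretches of NM_207681 is absent from the other rows, so its share cannot be read apart from theirs.

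The promoter windows of Bcl2l11 and Bbc3 are shown because these were the 2 members with GTAAACA, the core recognised by FOXO factors, before an annotated start. Each window runs from 250 bases before to 50 after a start. Only the 250 bases before the start were searched, for the members and for all windows. RefSeq gives the windows on GRCm38.p6. The 250 bases before the start are printed on the plus strand, chr2:128125788-128126037 for Bcl2l11 and chr7:16310011-16310260 for Bbc3, with the match in capitals.
Bcl2l11: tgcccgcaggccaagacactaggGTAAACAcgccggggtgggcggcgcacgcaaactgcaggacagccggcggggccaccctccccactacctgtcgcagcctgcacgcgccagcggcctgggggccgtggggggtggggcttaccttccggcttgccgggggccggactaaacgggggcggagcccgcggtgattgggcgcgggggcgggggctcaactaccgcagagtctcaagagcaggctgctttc
Bbc3: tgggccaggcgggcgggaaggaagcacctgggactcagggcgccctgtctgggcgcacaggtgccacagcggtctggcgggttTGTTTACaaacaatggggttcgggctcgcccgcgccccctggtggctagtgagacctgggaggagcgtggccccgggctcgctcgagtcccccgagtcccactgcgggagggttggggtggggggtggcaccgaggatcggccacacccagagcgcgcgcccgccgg
The match begins 227 bases before the Bcl2l11 start and, as the reverse complement TGTTTAC, 167 bases before this Bbc3 start, which lies inside the annotated gene span and is 1 of 3 Bbc3 windows. None of the printed bases lies in a GENCODE M21 exon of the members or of the other Bcl2a1 genes. Exons of other genes were not checked. GTAAACA occurred on either strand in 3.17% of 32851 promoter windows and in 2 of the 16 windows of the members. It was chosen for display after 8 motifs had been searched.

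Of the other motifs, AAACAA was in 3 member windows (18.3% of all windows), a loose kB-like motif in 11 (45.8%) and CACGTG in 2 (6.02%). TTTCCCGC and TTTGGCGC were in no member window, and 0.895% and 0.417% of all windows. The NF-kB consensus matched 2 member windows, of Bcl2l1 and Bbc3, against 5% of all windows, and its sites are among those of the loose kB-like motif. The p53 half-site matched 2, of Bmf and Bax, against 7.13%. AAACAA overlaps GTAAACA in Bbc3. A match describes letters in a window and is not a measured binding site.

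Bid (NM_007544; chromosome 6, 120893119 to 120917062) encodes the BH3-only protein that caspase-8 cleaves. It was at 109 and 173 TPM in naive cells, 574 and 619.5 in div0, 673 and 705 in div12, 447 and 408 in div12_48_d, and 432 and 372 in div12_48_u. Its cultured libraries all exceeded the naive ones, and the Phase II groups overlapped each other. Bid rose by 2.11 ± 0.19 in div0 against naive (limma adjusted p = 6.98e-05) and by 2.32 ± 0.19 in div12 against naive (adjusted p = 2.15e-05). It was above naive by 1.63 in div12_48_d (adjusted p = 0.000146) and by 1.54 in div12_48_u (adjusted p = 0.000397).

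Against div12, Bid fell by 0.69 in div12_48_d (limma adjusted p = 0.0407) and by 0.78 in div12_48_u (adjusted p = 0.011). The call in div12_48_u was lost without div12 replicate 2 (0.0604) or div12_48_u replicate 2 (0.0695). The call in div12_48_d was lost without any 1 of the 8 cultured libraries (0.059 to 0.221), with no filter (0.0728), with no trend (0.0645) and with the most abundant transcript (0.0502). Of Bid's 50-base stretches 18.9% are shared with Bcl2l13, a gene that overlaps it, so part of its reads could belong there. Bid held 80.5% to 85.9% of the BH3-only sum in div0 and div12, and 65.5% and 57.6% in div12_48_d, against 57.0% and 53.5% in div12_48_u.

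Among the effectors, Bax (NM_007527; chromosome 7, 45461695 to 45466903) was at 301.5 and 324 TPM in naive cells, 335 and 338 in div0, 334 and 344 in div12, 425 and 394 in div12_48_d, and 406 and 407 in div12_48_u. All Phase II libraries lay above all others. Bax was higher than naive by 0.39 ± 0.07 in div12_48_d (limma adjusted p = 0.00188) and by 0.38 ± 0.07 in div12_48_u (adjusted p = 0.00367). In div0 and div12 against naive it differed by 0.11 and 0.12, which was not called, but median-ratio scaling gave 0.37 and 0.50 and quantile normalization 0.32 and 0.31, all called.

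Against div12, Bax rose by 0.27 in div12_48_d (limma adjusted p = 0.0386) and by 0.26 in div12_48_u (adjusted p = 0.0204), or 0.10 above the median gene in div12_48_u. With median-ratio scaling neither was called (adjusted p = 0.318 and 0.71), nor with quantile normalization (0.127 and 0.0557). The call in div12_48_u was lost without either div12 replicate (0.0749 and 0.0532) or either div12_48_u replicate (0.0803 and 0.0767). That in div12_48_d was lost without any 1 of the 8 cultured libraries (0.0605 to 0.155), with no trend (0.0835), the most abundant transcript (0.0562) and the compared groups alone (0.0995). The 2 Phase II groups differed by 0.01, with a 95% interval of -0.15 to 0.18.

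Bak1 (chromosome 17, 27019812 to 27028627) was at 99.9 and 123 TPM in naive cells, 120.4 and 130.1 in div0, 136 and 124 in div12, 125 and 127 in div12_48_d, and 108 and 99.4 in div12_48_u. The naive range overlapped that of div0, which overlapped those of div12 and div12_48_d. Bak1 was lower in div12_48_u than in div12, at -0.32 ± 0.11 (limma adjusted p = 0.0486). This call was lost without any 1 of the 8 cultured libraries (0.0702 to 0.194), with a pseudocount of 5 (0.0503), no filter (0.063), no trend (0.0697), the most abundant transcript (0.0526) and the compared groups alone (0.0574). In div12_48_d against div12_48_u the difference was 0.28, with a 95% interval of 0.02 to 0.54 (adjusted p = 0.107), called without naive replicate 1 (0.0373) or 2 (0.0375) and with median-ratio scaling (0.0192) and quantile normalization (0.0277). Against naive, Bak1 was called in no group, but without naive replicate 2 it was called in div0 (0.0308), div12 (0.0136) and div12_48_d (0.0246), and both scalings called it in the same 3 groups. Bak1 shares 17.1% of its 50-base stretches with Ggnbp1 and Bax 9.89% with Gm45808.

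**Figure D3:**
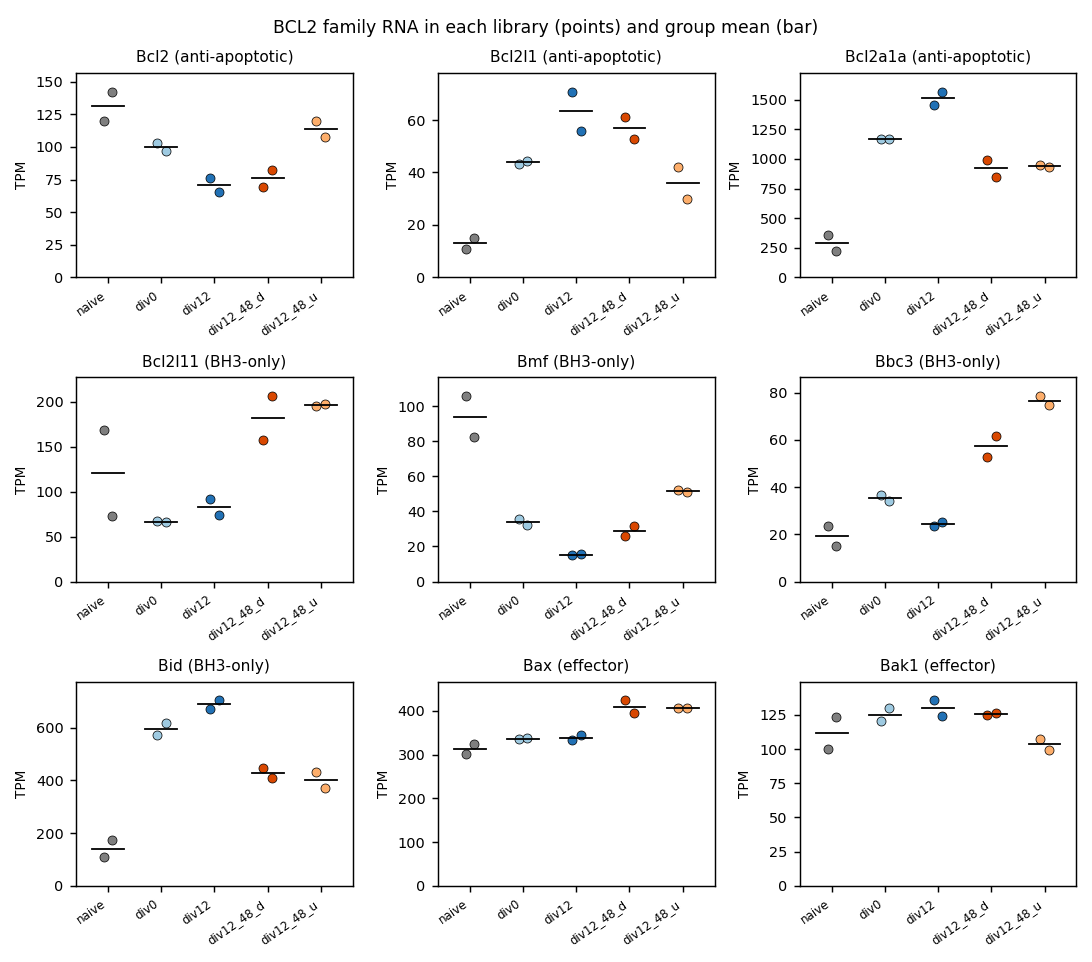
TPM of each of the 9 members in each library (points, 2 per group) and the mean of the group (bar), by group, each axis starting at 0. Bcl2a1a, Bcl2l1 and Bid lie above naive in every cultured library, Bmf lies below naive, and Bbc3 is highest in the 4 Phase II libraries at 52.8 to 78.6 TPM.

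Counted over comparisons, members were called as follows, with the share of all 4427 genes called beside them. In div0 against naive 6 of 9 were called (54.9% of all genes), 4 higher (15.4%) and 2 lower (39.6%). The comparison of div12 with naive called 5 (66.9%), 3 higher (19.4%) and 2 lower (47.5%). Median-ratio scaling and quantile normalization each called 8 members there (64.5% and 62.5% of all genes). For div12_48_d against naive the count was 7 (62.4%), 5 higher (21.8%) and 2 lower (40.6%). For div12_48_u against naive it was 6 (42.5%), 5 higher (15.2%) and 1 lower (27.2%). Large shares of all genes were called in each of these comparisons, so the members' counts alone do not set them apart. More genes were called lower than higher in all 4, an order that both scalings turned round. The median member lay at 0.17 in div0, 0.22 in div12, 0.70 in div12_48_d and 0.82 in div12_48_u, against medians below 0 for all genes.

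Within the cultures, div12 against div0 called 1 of 9 (8.76% of all genes), 0 higher (3.68%) and 1 lower (5.08%). Between the Phase II groups, div12_48_d against div12_48_u called 3 (25.6%), 1 higher (12.2%) and 2 lower (13.4%). Against div12, div12_48_d had 5 called (15.9%), 3 higher (11.9%) and 2 lower (4.09%). All 9 were called in div12_48_u against div12 (41.3%), 5 higher (27.7%) and 4 lower (13.6%). The div12 libraries served both of these last comparisons, so the values are not independent. Of the 9 calls in div12_48_u against div12, those of Bcl2, Bmf and Bbc3 held at the same threshold in every alternative and without each library. At a 2-fold limit, 3 of the 9 stayed (9.01% of all genes passed it), against 1 of 5 in div12_48_d (5.51% of all genes).

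The groups did not overlap for 8 of 9 members in div0 against naive (79.5% of all genes), div12 against naive (80.5%), div12_48_d against naive (80.6%) and div12_48_u against naive (70.6%). They did not overlap for 7 of 9 in div12 against div0 (65.9%), 5 of 9 in div12_48_d against div12_48_u (68.7%), 6 of 9 in div12_48_d against div12 (61.2%) and 9 of 9 in div12_48_u against div12 (72.8%). With 2 libraries a group, most genes meet this condition.

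The effect of dividing was compared between the phases by the difference of div12_48_d against div12_48_u and div12 against div0. No member was called and none passed an unadjusted p under 0.05. Of all 4427 genes limma called 0, with 438 at an unadjusted p under 0.05, while the fit with median-ratio scaling called 22 and that with quantile normalization 8. Bmf had a difference of 0.27 ± 0.21 and Bcl2l11 of -0.43 ± 0.46. Bcl2a1a had -0.41 ± 0.27. A difference between the phases in the effect of dividing was thus not resolved for any member.

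**Figure D4:**
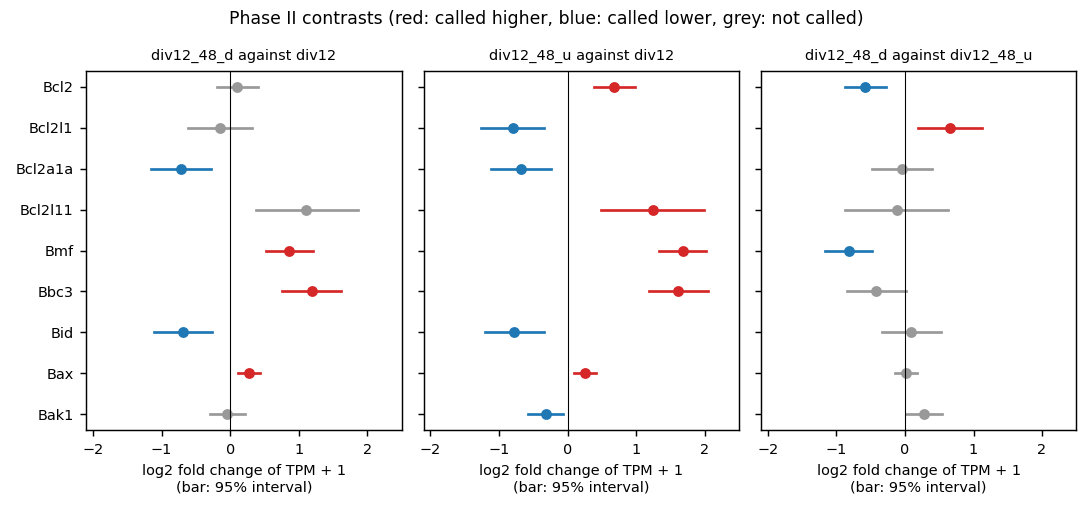
Log2 fold change of TPM + 1 with its 95% interval (bar) for each member in div12_48_d against div12 (left), div12_48_u against div12 (middle) and div12_48_d against div12_48_u (right). Red marks members called higher, blue called lower and grey not called. All 9 intervals in the middle panel exclude 0, and the intervals of Bcl2, Bcl2l1, Bmf and Bak1 do so in the right panel.

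Genes on the way from survival signal to caspase activation were followed on lists, given by counts. The lists were chosen with earlier results of these data known. The FOXO and PI3K list held 11 genes: FOXO transcription factors, genes of the PI3K and AKT pathway upstream of them, and Bcl6 and Trp53inp1, with Trp53inp1 also on the p53 list. Beside the counts stand the shares of all genes called in the same direction, from the comparisons above. In div0 against naive 10 of 11 were lower (39.6% of all genes) and 0 higher, with a list median of -0.83, against -0.24 for all genes. In div12_48_u against div12, 10 of 11 were higher (27.7% of all genes) and 0 lower, with a median of 0.96, against 0.16. Against div12, div12_48_d had 6 higher (11.9% of all genes) and 0 lower, and 4 were lower (13.4% of all genes) and 0 higher in div12_48_d against div12_48_u. The 4 shrank without div12_48_d replicate 1 or either div12_48_u replicate, and the 6 shrank without div12_48_d replicate 2. Each such fit leaves 1 library in a group, and fewer of all genes were called in it as well. With median-ratio scaling the first 2 counts were 8 lower (1070 of 4390 genes in all) and 9 higher (788 of 4390). At a 2-fold limit they were 4 lower (645 of 4427 genes in all) and 5 higher (246 of 4427).

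Foxo1, a FOXO factor active in resting lymphocytes, was at 278 and 268 TPM in naive cells, 140.5 and 128 in div0, 92.8 and 72.0 in div12, 92.8 and 124 in div12_48_d, and 179 and 154 in div12_48_u. It rose by 1.01 ± 0.16 in div12_48_u against div12 (limma adjusted p = 0.00194). Pik3ip1, an inhibitor of PI3K, was at 76.9 and 109 TPM in div12_48_u, against 16.5 and 17.0 TPM in div12, and rose by 2.38 ± 0.24 (adjusted p = 0.000288). Sgk1, a kinase downstream of PI3K, fell by 4.12 in div0 against naive (adjusted p = 3.41e-06) and rose by 1.45 in div12_48_u against div12 (adjusted p = 0.000521). Pik3cd rose by 1.25 in the same comparison (adjusted p = 0.000405). Of the 4 BH3-only members, Bmf shared the directions of the list in both comparisons. Bbc3 did so in div12_48_u against div12 but was higher in div0 against naive. Bcl2l11 had the signs of the list, at -0.72 (not called) in div0 and 1.24 in div12_48_u, and Bid the opposite ones, at 2.11 and -0.78. The anti-apoptotic Bcl2 was also called in the directions of the list, at -0.39 and 0.68. The -0.39, or -0.15 relative to the median gene, was not called with either scaling.

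**Figure D5:**
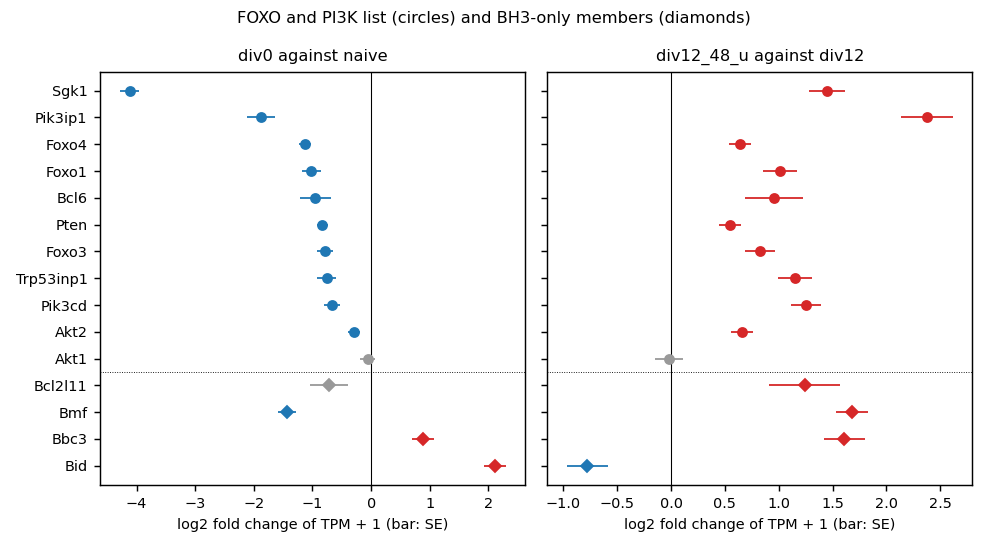
Log2 fold change of TPM + 1 with its standard error (bar) for the 11 genes of the FOXO and PI3K list (circles) and the 4 BH3-only members (diamonds), in div0 against naive (left) and div12_48_u against div12 (right). Blue is called lower, red called higher and grey not called. 10 of the 11 list genes are blue on the left and 10 are red on the right, where Bcl2l11, Bmf and Bbc3 are also red and Bid is blue.

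Of 17 other BCL2 relatives on the list 7 were listed and 5 tested. Mcl1, an anti-apoptotic relative on which B cells depend, was at 737 to 1199 TPM over the 10 libraries and was called in no comparison. Of the 5 tested, 1 was higher than naive in div0, 2 in div12, 2 in div12_48_d and 1 in div12_48_u, and 0 were lower (15.4%, 19.4%, 21.8% and 15.2% of all genes were called higher). The pro-apoptotic BH3-only gene Bad was higher than naive in div12 (0.72 ± 0.19, limma adjusted p = 0.0106) and in div12_48_d (0.74 ± 0.19, adjusted p = 0.0106). Bcl2l2, the gene of anti-apoptotic BCL-W, was higher than naive in div0 (0.67 ± 0.19, limma adjusted p = 0.0172), div12 (0.67, adjusted p = 0.0129), div12_48_d (0.93, adjusted p = 0.0029) and div12_48_u (1.20, adjusted p = 0.00138).

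Of the 11 tested caspase and apoptosome genes, 2 were higher (12.2% of all genes) and 1 lower (13.4%) in div12_48_d against div12_48_u, near the shares of all genes, with a list median of -0.01 against -0.08 for all genes. Apaf1, the apoptosome scaffold, was higher by 0.44 (limma adjusted p = 0.032), and Casp6 had -0.59 (adjusted p = 0.0115). Against div12, Casp6 was higher in div12_48_u by 1.03 (27.7% of all genes were called higher). There 3 genes were lower (13.6% of all genes), among them Cycs, the cytochrome c gene, at -0.64 and Aifm1 at -0.39. Both scalings called 6 genes of the list lower there. The genes called lower in all also rose, from 603 of 4427 to 978 of 4390 with median-ratio scaling and 856 of 4427 with quantile normalization. Of the 3 tested inhibitor of apoptosis genes, Birc5, the survivin gene, was at 316.5 and 272 TPM in div12_48_d, against 113 and 98.5 TPM in div12_48_u (1.47 ± 0.15, adjusted p = 0.000753).

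Of the 10 tested p53 genes, 3 were higher (12.2% of all genes) and 0 lower in div12_48_d against div12_48_u, with a list median of -0.07 against -0.08. They were Trp73 (2.03, limma adjusted p = 0.000875), Cdkn1a (1.67, adjusted p = 0.0155) and Ccng1 (0.46, adjusted p = 0.0469). Bbc3, a p53 target, had -0.42 there. The div12_48_u cells had 3 higher (27.7% of all genes) and 0 lower than div12, Trp53inp1 at 1.15, Mdm4 at 0.91 and Mdm2 at 0.36. In div0 against naive 2 were higher (15.4% of all genes) and 5 lower (39.6%), near the shares of all genes.

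Of 12 tested genes of BAFF and CD40 signalling, 1 was higher (12.2% of all genes) and 6 lower (13.4%) in div12_48_d against div12_48_u, with a list median of -0.53 against -0.08. The gene that was higher was Tnfrsf17, the plasma cell receptor BCMA, which was at 0.834 and 2.60 TPM in div12_48_d and listed at 0 in both div12_48_u libraries. Cd40 itself had -0.68 (limma adjusted p = 0.0208) and Relb -0.66 (adjusted p = 0.00394). The comparison of div12_48_u with div12 had 5 higher (27.7% of all genes) and 1 lower (13.6%), with Map3k14, the kinase NIK, at 0.91 and Rela at 0.73. Both scalings gave 3 higher and 2 lower. Of all genes, median-ratio scaling called 788 higher and 978 lower of 4390, and quantile normalization 851 and 856 of 4427. Of 11 death receptor genes, 1 was higher (27.7% of all genes) and 1 lower (13.6%) in div12_48_u against div12 without either scaling. In div12_48_d against div12_48_u 0 of them were higher (12.2% of all genes) and 3 lower (13.4%). Fas fell to 124 and 88.0 TPM in div12_48_u, against 227 and 249 TPM in div12 (-1.17, adjusted p = 0.00291). Of 7 outer mitochondrial membrane partners, Vdac1 (-0.54) and Vdac2 (-0.34) were lower (13.6% of all genes) in div12_48_u against div12. Mfn2 (0.38) was higher there (27.7% of all genes), and neither scaling called it. In div12_48_d against div12_48_u 2 of these partners were higher (12.2% of all genes) and 0 lower (13.4%).

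Likeness of pattern was measured as the root mean square difference of log2 values centred on each gene's mean over the 10 libraries, so that 0 is the same pattern. Among the members, Bax and Bak1 were closest at 0.229, followed by Bcl2l1 and Bid at 0.301, Bcl2a1a and Bid at 0.323, and Bcl2l1 and Bcl2a1a at 0.391. Flat genes lie close to one another by this measure. Over 3410 other genes, the nearest to Bcl2 were Snrk (0.0528), Kdm3b (0.0716) and Lrp6 (0.0784), and those to Bcl2l1 were Ezh2 (0.144), Tfdp1 (0.147) and Inf2 (0.162). Nearest to Bcl2a1a were Tnf (0.24), Arl6 (0.269) and Kif18a (0.293), and to Bid were Cfp (0.254), Kynu (0.27) and Inf2 (0.286). Bmf was nearest to Enpp1 (0.201), Lats2 (0.206) and Cerk (0.214), Bbc3 to Nectin1 (0.275), Slc22a17 (0.347) and Cacna2d4 (0.348), and Bcl2l11 to Fbxo44 (0.288), Alcam (0.288) and Nampt (0.315). Bax was nearest to Gde1 (0.0492), Hsd17b4 (0.0642) and Ei24 (0.0721), and Bak1 to Bscl2 (0.0592), Cs (0.0601) and Slc9a3r1 (0.0692). The libraries share their groups, so these values describe the 10 libraries only.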

How the data were processed

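Total RNA of 100 ng was depleted of ribosomal RNA and sequenced as 50 bp single reads, per the labels' protocols. Tools named in the submitters' processing notes were Salmon, HISAT2, HTSeq, featureCounts and DESeq2, and the build was mm10, with neither roles nor versions. The authors deposited TPM for each RefSeq transcript, which sum to 1000000 in each library. The sources used here give neither read depth nor strand handling, so no counting interval could be made.

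From these TPM, 63 rows without a symbol (at most 0.379% of TPM) were left out and the other 13065 rows were summed to 6610 genes, of which 734 were 0 in all libraries. The 4427 genes that reached 1 TPM in 2 or more of the 10 libraries were kept, and log2(TPM + 1) was fitted with limma 3.58.1 in R 4.3.3 (group means, trend, empirical Bayes, 5 residual degrees of freedom), with two-sided Benjamini-Hochberg adjusted p-values and a threshold of 0.05. The pseudocount understates changes of low genes. The script was tested on simulated data. Tables were handled in Python 3.11.15 with pandas 2.3.3 and numpy 2.4.6, and plots drawn with matplotlib 3.10.9. Positions, promoters and coding bases came from RefSeq (GRCm38.p6) and GENCODE M21.

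The 9 members were named throughout. For pathway lists, up to 4 genes with the largest change among those called were named, and for each member the 3 genes of most like pattern. Mcl1 and the named marker genes fall outside this rule and were chosen after their values were seen. Members and lists were chosen with earlier results of these data known. Where nothing says that replicates were separate cultures, p-values may measure technical spread. Alternatives covered pseudocount, filter, scaling, samples in the fit, a replicate block, the trend, the transcript used, a fold limit and leaving out each library. 1 gene of the pathway lists is not reported here.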

Additional observations from a re-analysis of the deposited data

How the results depend on the processing

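Of the members' differences that were called, none changed direction in any alternative. Members called moved by more than 1.5 times as follows. Shares of all genes called stand in brackets. In div12 against naive (66.9%), 5 became 8 with median-ratio scaling (64.5%) and 8 with quantile normalization (62.5%). In div12 against div0 (8.76%), 1 became 2 with the filter at 5 TPM (13%) or the most abundant transcript (5.21%). It became 3 with median-ratio scaling (12.2%) or quantile normalization (8.63%) and 4 without the naive group (13.6%). In div12_48_d against div12_48_u (25.6%), 3 became 5 without the naive group (32.3%), 1 with the compared groups alone (15.1%) and 0 at a 2-fold limit. In div12_48_u against div12, 9 became 3 at a 2-fold limit. In div12_48_d against div12 (15.9%), 5 became 3 with no filter (10.4%), 2 with no trend (13.7%) and 1 at a 2-fold limit. At that limit 5.62%, 9.01% and 5.51% of all genes were called in these last 3 comparisons. Leaving out 1 library gave 0 to 4 members in div12 against div0, 0 to 5 in div12_48_d against div12_48_u, 3 to 9 in div12_48_u against div12 and 1 to 6 in div12_48_d against div12. The cause was not tested.

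Uncalled differences that changed sign were Bak1 in div12_48_u against naive (0.07), Bcl2a1a in div12_48_d against div12_48_u (0.04) and Bcl2 in div12_48_d against div12 (-0.03) with median-ratio scaling. With quantile normalization they were Bax in div12 against div0 (-0.01), Bax in div12_48_d against div12_48_u (-0.03) and Bcl2 in div12_48_d against div12 (-0.03). Leaving out 1 library also turned the sign of uncalled differences, given with their lowest and highest values. In div12 against naive it was Bcl2l11 (-1.02 to 0.19). In div12_48_u against naive it was Bak1 (-0.25 to 0.05). In div12 against div0 they were Bax (-0.01 to 0.03) and Bak1 (-0.01 to 0.12). In div12_48_d against div12_48_u they were Bcl2a1a (-0.15 to 0.07), Bcl2l11 (-0.32 to 0.07), Bid (-0.02 to 0.20) and Bax (-0.04 to 0.06). In div12_48_d against div12 they were Bcl2 (-0.02 to 0.23), Bcl2l1 (-0.31 to 0.02) and Bak1 (-0.11 to 0.02). In the difference between phases they were Bcl2 (-0.21 to 0.04), Bcl2l1 (-0.10 to 0.39), Bbc3 (-0.02 to 0.20) and Bax (-0.05 to 0.05). Median-ratio scaling moved the split of all called genes. For div0 against naive it gave 1197 higher and 1070 lower, where the split without it was 680 and 1751. Likewise it gave 1485 and 1347 (858 and 2104) for div12, 1443 and 1248 (964 and 1798) for div12_48_d and 1124 and 881 (675 and 1205) for div12_48_u. Within the cultures it gave 350 and 184 (163 and 225) for div12 against div0 and 674 and 482 (540 and 594) for div12_48_d against div12_48_u. Against div12 it gave 438 and 446 (525 and 181) for div12_48_d and 788 and 978 (1225 and 603) for div12_48_u.

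Replicate numbers were not shown to pair the samples: correlations of deviations ran from -0.24 (div0 and div12) to 0.20 (div12_48_u and div12_48_d). The replicate block moved the members called in div12_48_d against div12 to 3 (13.6% of all genes), and in the difference between phases called 3 of all genes. It ended the calls of Bcl2l1 in div12_48_d against div12_48_u (adjusted p = 0.0574), Bak1 in div12_48_u against div12 (0.0654), and Bid (0.0523) and Bax (0.0618) in div12_48_d against div12, and no other member's call. Depth is unknown, so low rows carry an error that these values do not show.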
